A study of Mus musculus with 2 samples.

Results

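The probes described here are the neighbours of Psmb10 and Ctrl on mouse chromosome 8. They were chosen by position alone. Every non-control probe was taken whose coordinate in the scanner files lies on chromosome 8 within 5 Mb either side of the start of the Psmb10 probe, leaving out Psmb10 itself. This gave 247 of the 41174 probes on the array, of which 151 carry the names of 111 genes and 96 have no gene name here. The place was chosen because Psmb10 and Ctrl were already known to be lower in the mutant on these same arrays, so their values are a description and support nothing further.

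The samples were pancreas RNA of mouse pups at postnatal day 3. The mutant pool came from pups homozygous for a mutant allele of the transcription factor gene Glis3, written Glis3zf/zf and Glis3KO in the labels, and the other pool came from wild-type (WT) pups. Each pool held RNA of 2 pups. Both pools were hybridised together to 2 two-colour Agilent whole mouse genome arrays, first with the mutant in Cy5 and then, with the dyes exchanged, with the mutant in Cy3. Strain, sex and treatment are not given in the sources used here. There is 1 pool per genotype, so no value has a check across animals and no test was made. Each normalised ratio sets the mutant over WT on the log2 scale, and values below 0 mean less signal in the mutant. Where 2 array values are given, the array with the mutant in Cy5 comes first.

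Psmb10 encodes a catalytic subunit that is built into the immunoproteasome, the form of the proteasome that cuts peptides for display on MHC class I and is induced by interferon gamma. Ctrl encodes a chymotrypsin-like protease that acinar cells of the pancreas secrete with the other digestive enzymes. Genes that lie side by side can share regulatory DNA, and a long stretch of chromosome can differ between animals by descent. A profile by position shows how far from a gene a difference in expression extends.

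The sequences before both genes are shown because these are the neighbours that were both lower. They are the RefSeq promoters of build GRCm38.p6, from 250 bases before to 50 bases after the annotated start. The Ctrl promoter is chr8:105933813-105934112 and the Psmb10 promoter is chr8:105938343-105938642, both on the minus strand and printed 5′ to 3′. Capitals mark each match to the E-box CANNTG, the short motif bound by basic helix-loop-helix factors.
Ctrl: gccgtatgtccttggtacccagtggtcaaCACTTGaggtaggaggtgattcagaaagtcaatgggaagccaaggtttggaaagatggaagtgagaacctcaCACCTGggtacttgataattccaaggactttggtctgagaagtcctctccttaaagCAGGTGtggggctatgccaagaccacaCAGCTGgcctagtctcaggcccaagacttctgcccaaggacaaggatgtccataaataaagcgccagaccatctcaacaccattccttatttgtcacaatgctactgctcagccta
Psmb10: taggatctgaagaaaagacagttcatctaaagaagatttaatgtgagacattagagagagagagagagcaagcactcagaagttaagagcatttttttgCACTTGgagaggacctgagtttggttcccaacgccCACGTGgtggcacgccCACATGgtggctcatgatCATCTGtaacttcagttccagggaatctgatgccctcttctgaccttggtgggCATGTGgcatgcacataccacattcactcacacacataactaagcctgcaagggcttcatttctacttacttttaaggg

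The Ctrl promoter held 4 E-boxes and the Psmb10 promoter 5, a motif found on either strand in 72.3% of the 32851 promoters of that length. Neither promoter held TATAAA, present in 13.6% of promoters, CCAAT (37.4%), TGGGAAA (8.06%), TTCNNNGAA (8.3%) or GGGGGGT (5.17%), each searched on both strands. The last 3 are an RBPJ-type motif of the acinar PTF1 complex, a STAT-type motif and the core of a Glis-type motif. Among the flanking genes, the Pskh1 promoter held GGGGGGT once and CCAAT once, and the Lcat promoter held CCAAT once. The Ctrl promoter had a GC content of 49% with 2 CpG sites and the Psmb10 promoter 45.7% with 3, against 67% with 28 for Pskh1 and 61.3% with 7 for Lcat. Over all 32851 promoters the medians were 52.7% and 7. These letters describe the windows printed and say nothing of any factor's binding.

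Within this stretch of chromosome 8, both Psmb10 and Ctrl were over 2-fold lower in the mutant and no other probe was. Psmb10 was read by 1 probe (NM_013640), which the files place on chromosome 8 from 105231625 to 105231684 in a genome build not given in the sources used here. Its mean spot signal, before any correction, was 3253.1 in the mutant against 12759 in WT on the first array, and 3043.2 and 11499.2 on the dye-swapped array. The mutant signal was the lower one in both orientations. The normalised ratios were -1.78 and -1.67, a mean of -1.73 with 0.05 either side, which is 3.31-fold lower.

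Ctrl was also read by 1 probe (NM_023182), at 105228443 to 105228502 on chromosome 8, 3182 bp from the Psmb10 probe. Its signals were 5502.8 in the mutant against 13040.1 in WT on the first array, and 4315 and 11430.8 on the second. Here too the mutant was lower in both orientations, far from saturation. The ratios were -1.08 and -1.15, a mean of -1.11 with 0.04 either side, which is 2.16-fold lower. Its ratio was thus closer to 0 than that of Psmb10 on both arrays. Both genes lie on the minus strand, and in the RefSeq annotation no protein-coding gene lies between them.

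The genes directly beside this pair had ratios near 0. Pskh1, a protein serine kinase gene on the opposite strand, is the next gene beyond Ctrl. Its probe lies 4.7 kb from that of Psmb10, and its signals were 237.9 in the mutant against 287.8 in WT, then 240.6 and 240.2. The normalised ratios were 0.05 and 0.02. Lcat, the plasma enzyme that esterifies cholesterol, is the next gene on the other side at 4.2 kb. Its signals were 308.6 and 362.4, then 272.9 and 258.2, and its ratios were 0.08 and 0.11. Slc12a4, a potassium-chloride cotransporter gene at 8.0 kb, had -0.02 and 0.00. Thus the probes flanking the pair on either side were within 0.11 of 0 on each array. The median raw signal of the first array was 265 in Cy3, which held WT, and 208.2 in Cy5, and the normalisation within each array removes this offset.

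Over the 16 nearest named genes, 8 on each side, Ctrl stood alone. The other 15, out to 228.5 kb, had mean ratios between -0.29 and 0.20 with a median of 0.03. Of these, 7 were above 0 on both arrays and 2 below 0 on both, against 30.2% and 30.4% of all detected probes. The 2 were Edc4, an enhancer of mRNA decapping, with -0.34 and -0.24, and Tsnaxip1, whose product interacts with a translin partner, with -0.24 and -0.26. Both lie on the Ctrl side, at 42.7 and 91.9 kb. Between and around them Nrn1l had a mean of 0.04, Nutf2, a carrier of nuclear import, 0.10 by its nearer probe and 0.02 by its other, Thap11 0.04 and Cenpt, a centromere protein gene, 0.02. On the Psmb10 side the membrane dipeptidase genes Dpep3 and Dpep2 had 0.01 and 0.07 and the helicase gene Ddx28 0.10. Pla2g15, a lysosomal phospholipase, was the highest of the 15 at 0.20, with 0.20 and 0.19 on the arrays.

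Of the 247 neighbours, 239 were detected, meaning well above background by the scanner software in at least 1 genotype on both arrays. The remaining 8 had raw signals between 55.6 and 89.2 and mean ratios between -0.02 and 0.06. No neighbour was saturated. A rule of size asked that the mean of both arrays reach 2-fold and that each array alone reach 1.5-fold the same way. By it 1 detected neighbour was lower, Ctrl, and 0 were higher, which is 0.418% and 0%. Over all 38864 detected probes of the array the rule called 0.0952% lower and 0.142% higher, and over the 1578 detected probes of the rest of chromosome 8 it called 0.127% in each direction. As the window was centred on this known difference, nothing is read from the count of 1. Leaving out Ctrl leaves 238 detected neighbours with none past the rule.

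The neighbours as a whole were centred on 0. Their median ratio was 0.002, with 0.012 on the first array and -0.001 on the second, and that of the rest of chromosome 8 was -0.004. The difference between these medians was 0.006, and 0.017 and 0.006 on the separate arrays. The typical probe differed by 0.05 either side of its own mean between arrays, in the window and in the rest of the chromosome alike. Of the neighbours, 94.6% had a mean ratio within 0.3 of 0, against 95.4% in the rest of chromosome 8 and 96% over all probes. The 5th and 95th percentiles were -0.25 and 0.16 in the window and -0.24 and 0.16 outside it. In the window 69 probes were below 0 on both arrays (28.9%), 76 above 0 on both (31.8%) and 94 changed sign (39.3%). In the rest of chromosome 8 these shares were 33.1%, 29.1% and 37.8%. The SD over probes was 0.16 in the window, 0.14 without Ctrl and 0.18 in the rest of the chromosome.

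By distance from Psmb10 the medians ran flat. In steps of 1 Mb with at least 26 detected probes, they were 0.01, 0.01, -0.01, -0.02, -0.01 and 0.02 from the lower to the higher coordinates. The thinly filled steps had 0.10 over 8 probes at 3 to 4 Mb on the lower side, where the probes of Cdh11 lie, 0.09 for 1 probe at 2 to 3 Mb on that side, and -0.03 over 4 probes at 2 to 3 Mb on the other. No probe lay in the outermost 1 Mb on the lower side. The 93 detected probes within 1 Mb of Psmb10 had a median of 0.001. The 106 detected probes on the lower side had 0.015 and the 133 on the higher side -0.009. Named and unnamed neighbours had medians of 0.014 and -0.013.

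The members reached less far from Psmb10 on the lower side than on the higher side. On the lower side the outermost member was a Cdh11 probe at 3.31 Mb (0.36) and the next probe outside was A330008L17Rik at 6.52 Mb (0.02). On the higher side the outermost was Fcsk, a fucokinase gene, at 4.95 Mb (0.15), and the next outside was St3gal2, a sialyltransferase gene, at 5.03 Mb (0.02).

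In steps of 10 Mb along the whole chromosome, centred so that the window is a step of its own, the 13 medians lay between -0.02 and 0.01, with 0.00 for the window. Outside the window 4 probes of chromosome 8 passed the rule of size. They were Ces1d, a carboxylesterase gene 12.8 Mb away and 4.77-fold lower, a clone described as palladin (AK010350) 44.7 Mb away and 3.47-fold lower, the skeletal actin gene Acta1 17.9 Mb away and 9.3-fold higher, and the angiotensinogen gene Agt 18.6 Mb away and 4.62-fold higher. The closest of these to each other, Acta1 and Agt, lie under 1 Mb apart, and both were higher.

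After Ctrl, the lowest neighbours were a pair of probes for the same clone. AK017529 is described in the files as a homolog of splicing factor 3B subunit 3, a part of the spliceosome, and lies 4.91 Mb from Psmb10. One probe had signals of 337.3 in the mutant against 701.3 in WT, then 321.0 and 528.4, and ratios of -0.76 and -0.65. The other, less than 1 kb away, had 266.1 and 513.7, then 262.3 and 400.5, and ratios of -0.65 and -0.56. The mutant was lower on each array by each probe, and the means were -0.71 and -0.61. The probe named as Sf3b3 itself, 4.88 Mb from Psmb10, had 0.28 and -0.11, a mean of 0.08. A mean of 1.5-fold with the same sign on both arrays was passed by 3 lower probes of the window (1.26%), Ctrl and both of these, and by 0 higher probes. Over all detected probes 0.396% were lower and 0.304% higher by this bound, and over the rest of chromosome 8 0.57% and 0.19%. The 3 lower probes stand for 2 transcripts, 1 of them known beforehand. These counts hold for the ratios used here, and the offset described below shrinks the ratios of dim probes. By the scanner software's own ratios, Nol3 (0.98 and 0.96) and Hp (0.62 and 0.71) would also pass this bound, as higher. A dim Ces2e probe (-0.79 and -0.54) would pass it as lower, and such probes were not counted.

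A probe for Tlm, a T lymphoma oncogene transcript (NM_011601), had a mean of -0.54 but differed between arrays, with -0.78 and -0.31. Its signals were 2388.6 and 4849.7, then 2954.1 and 4272.0. The files give it a span of 480 bp, longer than a probe. A clone described as the proteasome lid subunit Psmd7 (AK012463) had -0.39 and -0.25, whereas the probes named as Psmd7 had means of -0.13 and 0.07. The remaining lowest were a predicted transcript (XM_622446) at -0.31 and the zinc finger genes Zfp612 and Zfp90, both at -0.28. An unnamed clone (AK048129) had -0.82 and 0.19 and so showed no direction that held on both arrays. Its probe, on the minus strand, overlaps in coordinates that of E2f4, on the plus strand, and E2f4 had -0.17 and -0.01.

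The highest neighbours were Cdh11 and Hp, both at 0.49. Hp, the gene of the plasma haemoglobin scavenger haptoglobin, had signals of 244.3 in the mutant against 223 in WT, then 236.0 and 166.9, and ratios of 0.48 and 0.49. Nol3, an apoptosis repressor abundant in muscle, had 115.7 and 111.5, then 129.0 and 87.8, with ratios of 0.50 and 0.42. Its other probe was not detected and had a mean of 0.06. The detected Nol3 probe is dim. The Hp signals lay above the median raw signals of the mutant channels, 208.2 and 209.7, and below those of the WT channels, 265 and 207. The scanner software's own ratios put Hp at 0.66 and Nol3 at 0.97. Cdh16 followed at 0.38. A clone for ribosomal protein P0 (U89419) had 0.23, Pla2g15 and the cilium gene Hydin 0.20 each, an unnamed clone (AK043413) 0.18 and Cog4, of a Golgi tethering complex, 0.17 by 1 probe and 0.04 by the other. None of these passed the rule of size.

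The gene groups were described by counts and medians, beside a median of 0.001 over all detected probes. Of all detected probes, 30.4% were below 0 on both arrays, 30.2% above 0 on both and 39.3% changed sign. The groups are small, so nothing is read from their counts by sign. The window holds 5 measured cadherins, the calcium-dependent adhesion proteins that join cells of like type, read by 8 probes. They had the widest spread of any group besides the one with Ctrl, from -0.35 to 0.49 with a median of 0.14. None passed the rule of size, with 2 probes below 0 and 5 above 0 on both arrays. Cdh1, the E-cadherin of epithelia, had signals of 2048.3 and 3139.5, then 2004.1 and 2526.9, and ratios of -0.36 and -0.13. Cdh3, the P-cadherin gene, had 0.16 on each array. Cdh16, a kidney-type cadherin, had 290.0 and 281.6, then 229.8 and 172.8, and ratios of 0.36 and 0.40. So the members of this family differed in sign within the window, the E-cadherin probe being below 0 and the P-cadherin and Cdh16 probes above 0 on both arrays.

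Cdh5 is the cadherin of endothelial junctions, and its 2 probes disagreed. The brighter had -0.36 and -0.33, with signals of 639 and 998.1, then 639.1 and 874.3. The other, less than 1 kb away, had 0.20 and -0.05. Of the endothelial markers Flt1, Kdr and Pecam1, the first had a mean of -0.55, the second -0.35 and the third -0.09. Pecam1 changed sign between arrays, with 0.01 and -0.18. With this Cdh5 probe, their summed raw signal was 2393 and 2172 in the mutant against 3838 and 3082 in WT, and none of the 4 was undetected. Their part in the Cdh5 value was not tested. In pooled tissue RNA, fewer cells of a type and less RNA per cell cannot be told apart.

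Cdh11, the cadherin of mesenchymal cells, had 3 detected probes in the window, all above 0 on both arrays. Their ratios were 0.56 and 0.42, 0.16 and 0.55, and 0.14 and 0.08, so their means ran from 0.11 to 0.49. Another Cdh11 probe, which the files do not place in the window, had -0.03 on each array, so the probes of this gene disagreed. The first read 924.3 in the mutant against 767.6 in WT, then 746.5 and 604.6. Among the other mesenchyme markers Pdgfra had 0.45, Col1a1 0.19 and Vim 0.03, the last 2 changing sign between arrays. Summed with the Cdh11 probe whose mean was 0.36, they read 56933 and 42284 in the mutant against 46300 and 56323 in WT, and all 4 were detected. Their part in the Cdh11 value was not tested.

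The window also holds the carboxylesterase cluster of the Ces2 to Ces4 type, enzymes that split esters of drugs and lipids. All 7 of its measured genes were detected, by 10 probes, with a median of 0.02 and none past the rule of size. The lowest was a Ces2e probe at -0.22, for which the scanner software's own ratios were larger, -0.79 and -0.54, and whose other probe had 0.03. The highest was a Ces2b probe at 0.15, whose other had -0.04. Ces2a had 0.00, Ces3b 0.01 and Ces4a 0.07. Among transcripts without a gene name that the files describe as similar to a carboxylesterase, a predicted one (XM_620704) had -0.23 and a clone (AK040349) had 0.03 and 0.12 by its probes. The 4.77-fold lower Ces1d belongs to a cluster outside the window, where Ces1e had -0.52 and the probes of Ces1c, Ces1f and Ces1g lay between -0.03 and 0.04. Ces5a, also outside the window, had 0.31 on each array.

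Genes of the CKLF-like MARVEL family, small membrane proteins related to a chemokine-like factor, lie together between 1.58 and 1.69 Mb on the Ctrl side. The 8 probes of 6 genes had a median of 0.07, with 6 above 0 and 1 below 0 on both arrays. The values were small, from -0.01 for Cmtm2b to 0.13 for a Cmtm4 probe, and none passed. Cklf had 0.10 and 0.08, and Cmtm3 0.12 with 0.21 and 0.02 on the arrays.

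Among plasma, steroid and redox genes, 7 of 8 probes were detected, with a median of 0.06, 5 above 0 and 0 below 0 on both arrays. Apart from Hp they lay between 0.00 and 0.11. Hsd11b2, which inactivates glucocorticoids, had 0.06, Nqo1, a quinone reductase, 0.03, Dhodh, of pyrimidine synthesis, 0.06, and Calb2, the calcium-binding calretinin, 0.00 and 0.11 by its detected probes.

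Transcription and chromatin genes and some others listed with them had a median of -0.01 over 20 detected probes of 12 genes, 6 below 0 and 5 above 0 on both arrays. Ctcf, which organises chromatin loops, had -0.12 and 0.01. Cbfb, the partner of Runx factors, had 0.00 and 0.06 by its probes, and E2f4, a cell cycle repressor, -0.09. The probes named as Nfatc3 and Nfat5, of the NFAT family, stayed between -0.02 and 0.09. Clones described as these genes had means from -0.12 to 0.14. Zfhx3, a homeobox factor, had -0.37 and -0.05, and Prmt7, an arginine methyltransferase, means of -0.19 and -0.07. The mixed list of transport, membrane and other genes had a median of 0.00 over 24 probes of 16 genes, 7 below 0 and 10 above 0 on both arrays. Its lowest was Edc4 at -0.29. Wwp2, a ubiquitin ligase, had 4 probes between -0.25 and 0.01, and the proton pump subunit gene Atp6v0d1 had 0.13. The list with the peptidases held Ctrl, Dpep2, Dpep3, Psmd7 and the neuropeptide gene Agrp (0.06), and Ctrl was the only member of these lists to pass.

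The relatives of both genes elsewhere in the genome did not pass the rule of size. Psmb8, another immunoproteasome subunit, had means of 0.05 and 0.07 by its probes and Psmb9 -0.06. The activator genes Psme1 and Psme2 had -0.02, and -0.12 and -0.25, and the peptide transporter genes Tap1 and Tap2 0.02 and 0.00. Of the MHC class I genes, B2m had means of 0.53 and 0.58 by its probes and H2-D1 had 0.24. Of the 8 probes for chymotrypsin, elastase and trypsin genes, 7 were saturated in both pools on both arrays and give no ratio. The remaining one, Cela1, had -0.29 and -0.15, while the acinar lipase gene Pnlip, also not saturated, had 0.18 and 0.22.

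The tissue label was checked with marker genes. Of 9 measured acinar markers all were detected, 7 of them saturated in both pools. The other 2, Cela1 and Pnlip, differed in sign, as given above. The 7 islet markers were below 0 on both arrays, with means from -4.16 to -0.14. Their summed signal was 51388 and 38755 in the mutant against 211004 and 208541 in the wild type. In WT, Ins2 read 65292.6 and 65328.5, the level of the saturated acinar probes, and Ins1 read 61576 and 65243.8, near that level. The size of the insulin ratios and of the WT sums may thus be understated. The 7 skeletal muscle markers were above 0 on both, from 1.37 to 4.46, with sums of 21387 and 19717 in the mutant against 2272 and 2182 in WT. The 4 macrophage markers were above 0 on both, from 0.10 to 0.86, and so were the 4 lymphoid markers, from 0.10 to 0.41. The raw macrophage sums were 20589 and 16370 in the mutant against 13485 and 12179 in WT. The raw lymphoid sums changed direction between arrays, with 10340 and 9299 in the mutant against 8499 and 9742 in WT. Whether RNA of other cell types had a part in the values of Nol3, Hp, Tlm, B2m, Psmb10 or Ctrl was not tested.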

How the data were processed

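The members and gene lists were chosen with earlier results of these data known. Two-colour scanner files of 2 arrays were used, a technical dye swap counted as 1 sample per genotype. The deposited files hold spot and local background intensity on a linear scale, not normalised, and the software's log10 ratio, Cy5 over Cy3, detrended and dye-normalised, per the file headers. Feature Extraction was version 7.5 per the submitters' processing notes and 8.5.1.1 per the file headers. The deposited series table holds log2 ratios, which equalled the software's ratios of mutant over wild type within 0.002 for 99.99% and 99.98% of probes. Each of its columns had a median of 0.

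Mean signals were background-corrected (normexp, offset 50) and normalised by loess within each array with limma 3.58.1 in R 4.3.3, with control spots at weight 0. The offset shrinks the ratios of dim probes, and loess assumes that most genes do not differ. Spots flagged as outliers were left out, 15 and 53 on the arrays. Spots of a probe were averaged, and the sign of the swapped array was turned before the arrays were averaged. The functions were tested on simulated data. Later steps used Python 3.11.15 with pandas 2.3.3. Median raw signals per channel lay between 207 and 265. The number of arrays limits the precision.

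Gene names and gene order came from RefSeq (GRCm38.p6). Of 41174 probes, 23305 were named. Of the 111 gene names in the window, 71 matched the RefSeq promoter table, so motif shares over the window's promoters are void and not given. Genes were named in the text by rule: Psmb10, members past the rule of size, the 10 highest and 10 lowest with the same sign on both arrays, the 8 nearest on each side, and members of fixed family lists. Also named were probes past the rule of size in the rest of chromosome 8, those at the window edges, and marker genes. AK048129, XM_620704, AK040349, Sf3b3 and the clones described as Nfatc3 and Nfat5 were chosen after their values were seen. Alternatives were other background correction, normalisation, ratios, filters, windows and single arrays.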

Additional observations from a re-analysis of the deposited data

How the results depend on the processing

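Ctrl was the only neighbour past the rule of size with a normexp offset of 0, the software's ratios, the deposited table, median centring, either array alone, both other filters on dim probes, both narrower windows and 1 value per gene. Its ratio ran from -1.17 to -1.08 over the settings run on it, and that of Psmb10 from -1.80 to -1.67. Without Ctrl the count was 0, and at 1.5-fold with the same sign on both arrays it was 3, all lower, because that bound is wider. By the first array alone (mutant in Cy5), the median of the neighbours was 0.012 and its difference from the rest of chromosome 8 was 0.017. With 1 value per gene, a separate setting, that difference was 0.015. The cause was not tested. Of 272 alternative values of the 34 named probes, 12 had the opposite sign, none of them of Psmb10 or Ctrl. No paired analysis was possible because the arrays share the same 2 pools. Dim probes limit what small ratios can show.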
